A study of Mus musculus with 3 samples.

Results

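Potassium channel genes were described in neuronal nuclei from tissue dissected as the mouse lateral habenula (LHb), a small epithalamic nucleus. All genes whose symbol starts with Kcn were taken, which gave 99 of the 32285 genes in the count table. Potassium channels let potassium ions leave or enter the cell and so set the resting potential, the shape of the action potential and how fast a neuron can fire again. Pore-forming alpha subunits assemble into a channel, and beta subunits, KChIP proteins and electrically silent modifier subunits change its gating or its delivery to the membrane. In the LHb, the astrocyte channel gene Kcnj10 is known for its effect on burst firing of the neurons, and in thalamic relay neurons next to it leak channels of the TASK type help set the firing mode.

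Nuclei labelled KASH-GFP+ were sorted from 3 groups of 3 mice: mothers (female), virgin females and virgin males. Each group was a pool captured in a lane of its own, so there was 1 library per group, and the sources used here give neither age nor strain, nor what drove the GFP label. Mice within a pool could not be separated, so no difference between groups could be tested, and the SD printed beside a level is the spread over the 3 libraries. The authors' metadata called 592 of 603 nuclei neurons and placed the neurons in clusters 0 to 4. The median neuronal nucleus held 11898 UMIs in the mothers' library, 13181 in that of virgin females and 9414 in that of virgin males, a UMI being a single captured transcript. No barcode was shared between nuclei.

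Each library's neuronal UMIs were summed per cluster, which gave 15 sums. Levels are counts per 1000000 UMIs of a sum (CPM), and values for a cluster are given in the order mothers, virgin females and virgin males. The sources used here do not state whether reads from introns were counted, so a level is compared between clusters or libraries, not with that of another gene, and a UMI ratio of 2 genes is read only for how it differs between clusters. The LHb label was only partly borne out by its markers. The 6 thalamic marker genes together came to 6786 to 10994 CPM in the 9 sums of clusters 0, 2 and 3, and to 1000 to 2309 CPM in the 6 sums of clusters 1 and 4. Pou4f1, a habenular transcription factor, had no UMI in clusters 0, 2 and 3, 49 UMIs in cluster 1 and 6 in cluster 4. Pcdh10 was also highest in clusters 1 and 4, at means of 306 and 304 CPM. The other LHb markers did not follow this division. Gpr151 had 25 UMIs in cluster 0, 26 in cluster 1 and 1 in cluster 4. Htr2c was highest in cluster 1, at 734 CPM, but lowest in cluster 4, at 215 CPM. Gap43 was at 229 CPM in cluster 0, 172 CPM in cluster 1 and 236 CPM in cluster 4. The 5 LHb markers together did not divide the clusters this way: the means ran from 577 CPM in cluster 3 to 1257 CPM in cluster 1, with cluster 4 at 767 CPM and cluster 2 at 860 CPM. The clusters are therefore called by number. GABAergic markers were at 58.4 CPM in cluster 1, 67.5 CPM in cluster 4, 5.25 CPM in cluster 0 and 0 in clusters 2 and 3. In cluster 4 all of this was Gad2, with 46 UMIs, while Gad1 and Slc32a1 had 0. In cluster 1 Gad2 had 64 UMIs, Gad1 20 and Slc32a1 16. The authors built the clusters from the same counts, so differences between clusters are described without a test.

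Of the 99 genes, 8 had no UMI in neuronal nuclei, 35 had 1 to 49 and 56 had at least 50. Those 56 were read further, 53 of them protein-coding. The 8 without a UMI were the leak channel genes Kcnk5, Kcnk15 and Kcnk16, the inward rectifier genes Kcnj8 and Kcnj15, the MinK-related genes Kcne1 and Kcne3, and the BK beta subunit gene Kcnmb1. The 35 with few UMIs included Kcnn1, an SK channel gene. Together the members took 3.35% of neuronal UMIs in mothers, and 2.96% and 3.18% in virgin females and males. By cluster, their summed level was lowest in cluster 1, at 17771 ± 764 CPM (SD, n = 3 libraries), and highest in cluster 3, at 40172 ± 1171 CPM. Without Kcnip4, the member with most UMIs (137392), the members summed to 15036 ± 292 CPM in cluster 0, 14745 ± 631 CPM in cluster 2, 14870 ± 660 CPM in cluster 3, 10620 ± 210 CPM in cluster 1 and 9820 ± 561 CPM in cluster 4. The 9 values of clusters 0, 2 and 3 lay above the 6 of clusters 1 and 4 in this sum. The sum is weighted to the members with most UMIs, after Kcnip4 Kcnd2 (21651), Kcnma1 (12416) and Kcnc2 (10416). It is therefore not read as a trait of every member.

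A gene was called high in a set of clusters when its mean CPM over that set was at least 1.5-fold above the mean over the other set within each of the 3 libraries. By this measure 10 members were high in clusters 1 and 4, against 9.36% of all 11467 genes with at least 50 UMIs. A further 20 members were high in clusters 0, 2 and 3, against 7.80% of all genes, and 26 were called in neither direction. The median log2 of clusters 1 and 4 over clusters 0, 2 and 3 was -0.24 over the members and 0.15 over all genes. Complete separation was rarer. Kcnc4, Kcnh1 and Kcnh8 were the 3 members with all 6 values of clusters 1 and 4 above all 9 others, as were 3.93% of all genes. In the opposite direction 9 members separated completely, as did 3.85% of all genes: Kcnt2, Kcnab1, Kcnj9, Kcnc2, Kcna4, Kcnq3, Kcnn3, Kcnd2 and Kcnf1. The members had more UMIs than other genes of at least 50, with a median of 499.5 against 227, and what depth contributes to these shares was not tested. Depth also differed between clusters, with median UMIs per nucleus, averaged over libraries, of 9454 and 9276 for clusters 1 and 4, and of 12015, 13621 and 15679 for clusters 0, 2 and 3. Thinning kept the 533 neuronal nuclei of at least 5000 UMIs, cut each to 5000 UMIs and left out the other 59. Cluster 1 went from 157 to 127 nuclei and cluster 3 from 91 to 89. The minimum of 50 UMIs was then applied to the thinned counts. Of the 10 members high in clusters 1 and 4, 4 were still called (Kcna1, Kcnh1, Kcnh8 and Kcnn2). Of the 20 high in clusters 0, 2 and 3, 15 were still called.

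**Figure D1:**
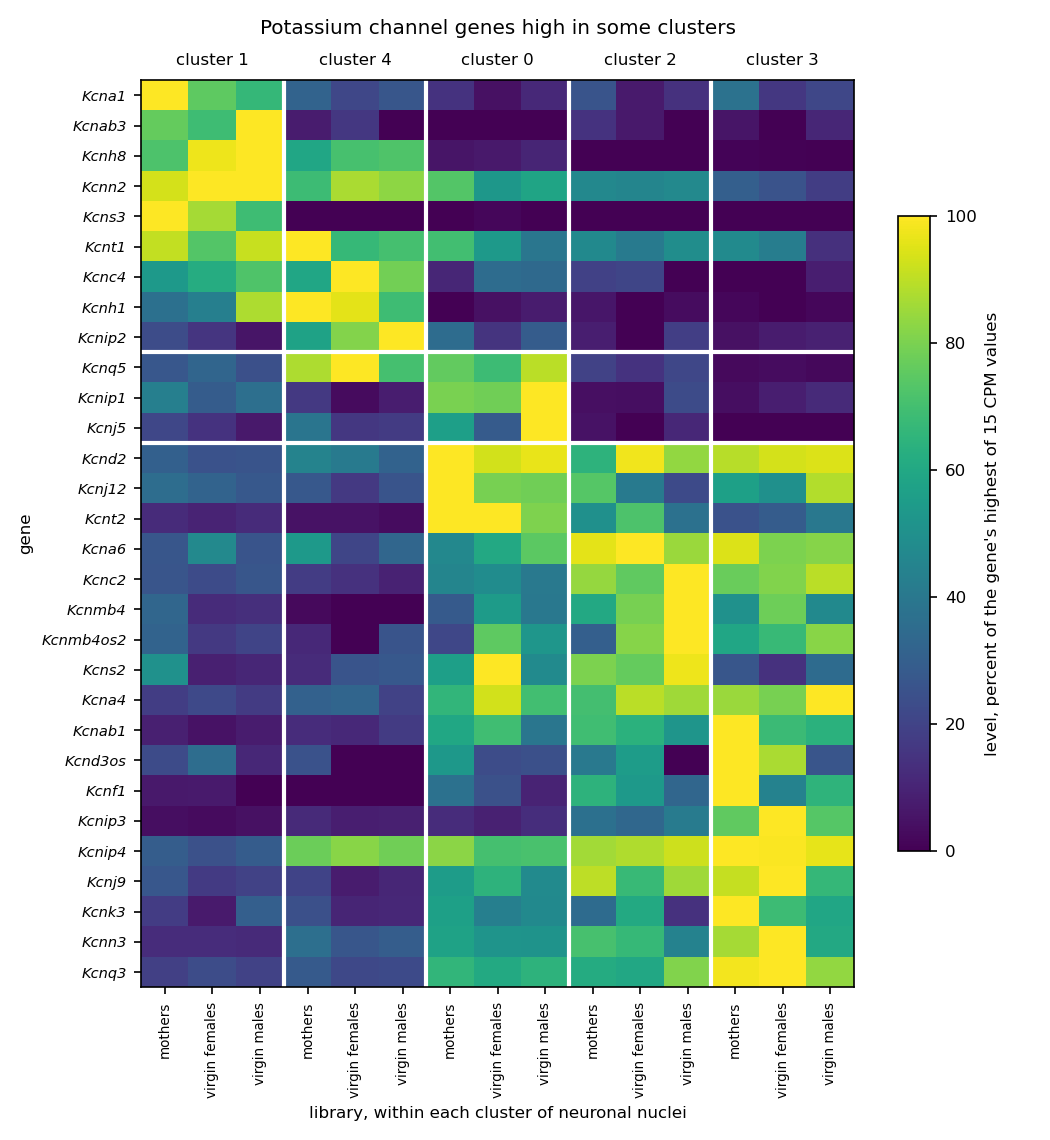
Levels of 30 potassium channel genes called for a set of clusters or for a single cluster, one row per gene, in each of the 15 sums of a cluster and a library; colour gives CPM as percent of the gene's highest value. The top block holds 9 of the 10 genes high in clusters 1 and 4, the bottom block 18 of the 20 high in clusters 0, 2 and 3, and the middle block 3 genes called for a single cluster only.

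In several families, members stood on opposite sides. Of 4 tested Kv1 genes 1 was high in clusters 1 and 4 and 2 in clusters 0, 2 and 3. The KChIP family and the silent modifier subunits each held 1 and 2, and the Kv3 family held 2 and 1. The Kv beta, SK and Slo2 families held 1 of each. The other families with calls had them in 1 direction only. For example, 2 of 5 tested EAG, ERG and ELK genes were high in clusters 1 and 4. Of 4 tested GIRK genes, 1 was high in clusters 0, 2 and 3. Among the tandem-pore leak channels (K2P) 1 of 7 was called. Family lists and counts are small, and no family was tested against the rest.

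**Figure D2:**
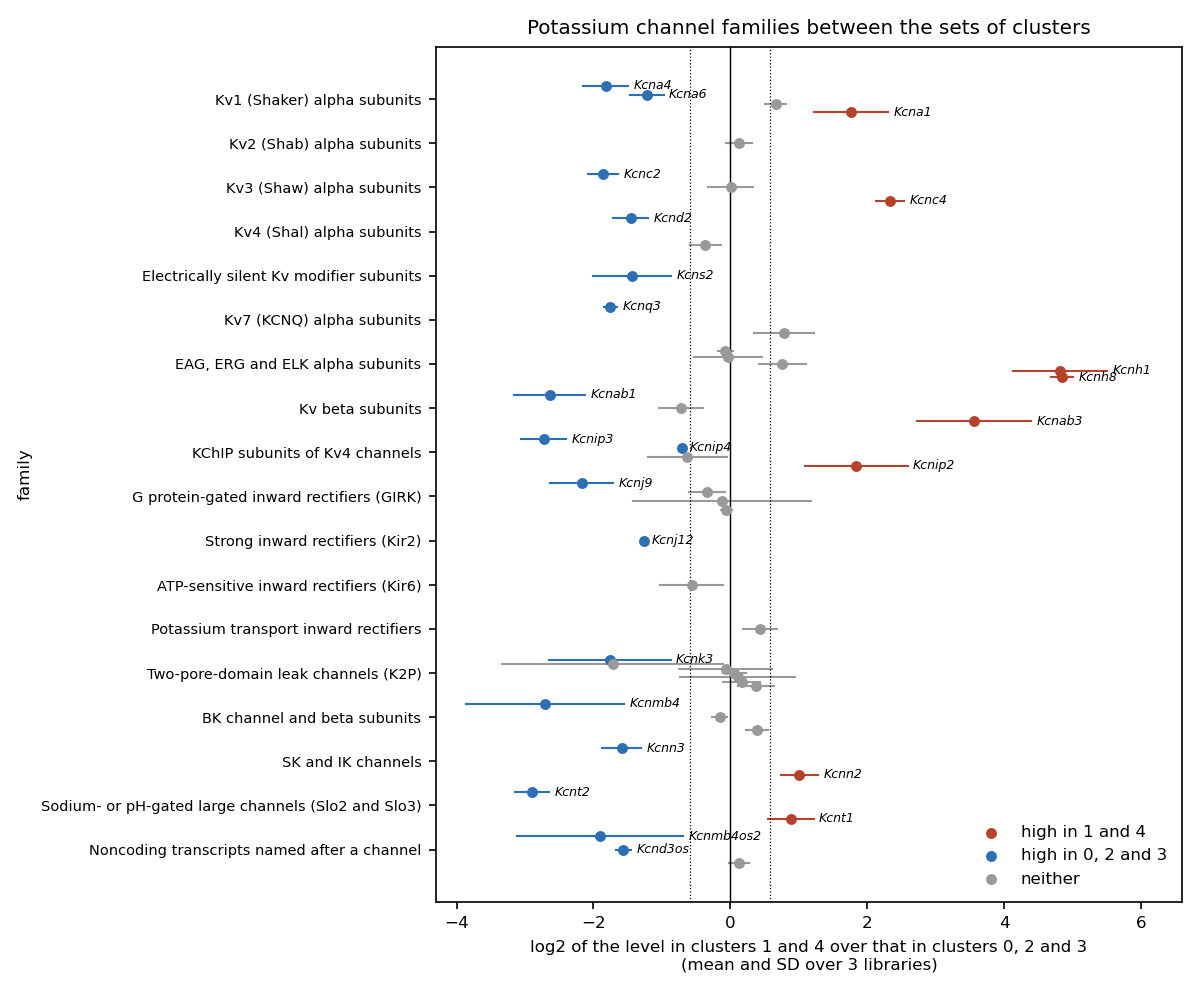
Log2 of the mean CPM of clusters 1 and 4 over that of clusters 0, 2 and 3 by channel family, one point per gene with its SD over 3 libraries; dotted lines mark 1.5-fold. Kcnh8 and Kcnh1 lie farthest to the right and Kcnt2 farthest to the left, and the Kv1, Kv3, Kv beta, KChIP, SK and Slo2 families have called genes on both sides; Kcns3, Kcnf1 and Kcnrg are not drawn because a library was at 0 in 1 set of clusters.

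For 4 genes called high in 1 or more clusters, the sequence before the start of the gene is shown. These genes were chosen after their values were seen. Kcnj5 was high in cluster 0, Kcnh8 in clusters 1 and 4, Kcnf1 in cluster 3 and Kcnh1 in cluster 4. Kcnh1 was also called for clusters 1 and 4 together. The windows are 240 bases long and end 10 bases before the gene's RefSeq start (GRCm38.p6), and are written 5′ to 3′ on the gene's own strand. They lie at chr9:32344355-32344594 (minus strand) for Kcnj5, chr17:52602459-52602698 (plus) for Kcnh8, chr12:17176899-17177138 (minus) for Kcnf1 and chr1:192190527-192190766 (plus) for Kcnh1. The Kcnh8 window also overlaps an exon of the antisense gene Gm27217. Capitals mark the nuclear receptor half-site AGGTCA, or TGACCT where the half-site is on the opposite strand.
Kcnj5: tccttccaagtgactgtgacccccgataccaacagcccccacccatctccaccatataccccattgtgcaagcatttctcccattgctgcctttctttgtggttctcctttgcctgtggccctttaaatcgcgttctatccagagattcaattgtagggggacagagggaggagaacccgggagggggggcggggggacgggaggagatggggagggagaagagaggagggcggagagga
Kcnh8: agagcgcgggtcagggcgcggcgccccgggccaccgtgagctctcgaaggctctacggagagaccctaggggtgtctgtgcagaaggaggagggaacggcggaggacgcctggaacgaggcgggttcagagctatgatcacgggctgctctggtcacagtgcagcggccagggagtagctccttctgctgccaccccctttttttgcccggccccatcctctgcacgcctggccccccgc
Kcnf1: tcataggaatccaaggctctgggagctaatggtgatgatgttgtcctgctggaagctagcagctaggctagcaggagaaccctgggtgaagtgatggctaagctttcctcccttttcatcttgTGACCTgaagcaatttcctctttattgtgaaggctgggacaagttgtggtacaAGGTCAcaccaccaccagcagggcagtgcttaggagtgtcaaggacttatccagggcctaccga
Kcnh1: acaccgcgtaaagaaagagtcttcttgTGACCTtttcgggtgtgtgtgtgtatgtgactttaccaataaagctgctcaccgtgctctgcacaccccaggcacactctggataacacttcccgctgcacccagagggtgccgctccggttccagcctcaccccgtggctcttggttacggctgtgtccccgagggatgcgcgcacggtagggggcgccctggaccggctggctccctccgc

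Kcnf1 held the half-site 127 and 74 bases before its start, and Kcnh1 held it 223 bases before. The Kcnh8 window held 19 CpG pairs, that of Kcnh1 16, that of Kcnj5 7 and that of Kcnf1 1, beside a median of 5 over all 32851 windows in the table. A RefSeq window was found for 72 of the 99 members. The half-site, read on both strands, was in 1 of 5 windows of members high in clusters 1 and 4, in 2 of 15 of those high in clusters 0, 2 and 3 and in 1 of 22 of those in neither, beside 13.5% of all windows. CTTTGA, the core of TCF/LEF sites, was in 0 of 5, 1 of 15 and 3 of 22 windows, beside 13.5% of all windows. CATTAA, a core read by POU4 factors, was in 0 of 5, 1 of 15 and 1 of 22, beside 7.73% of all windows, and TATAAA in 0 of 5, 1 of 15 and 1 of 22, beside 12.1%. These matches are letters in a window and say nothing of whether a factor binds.

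Kcnh8, which encodes an ELK-type voltage-gated channel that opens at negative potentials, had the largest fold between the sets among members with UMIs in both sets of every library. It lies at chr17:52602709-52979194 on the plus strand. Its level in cluster 1 was 554, 751 and 769 CPM, and in cluster 4 it was 455, 545 and 556 CPM. Cluster 0 held 43.7, 53.8 and 78.2 CPM, while clusters 2 and 3 together had 7 UMIs. The level was 28.8-fold higher in clusters 1 and 4 (lowest and highest library, 25.4 and 31.5). Shares were read in nuclei of at least 5000 UMIs, each thinned to 5000. A Kcnh8 UMI was in 61.4% of 127 nuclei of cluster 1 and 84.1% of 69 of cluster 4, against 19.5% of 154 in cluster 0. None of 94 nuclei of cluster 2 had one, which allows a share of up to 3.19% by the limit of 3 counts and of 3.85% by the exact 95% interval. Before thinning, over all neuronal nuclei of these clusters, including those under 5000 UMIs, the shares were 66.2%, 92.0%, 29.7% and 1.03%.

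Kcnh1, an EAG-type channel gene at chr1:192190774-192510159, followed the same division at a lower count of 187 UMIs. Its level was 38.3, 44.8 and 91.0 CPM in cluster 1 and 104, 99.5 and 71.6 CPM in cluster 4. The other 3 clusters had 9, 5 and 2 UMIs. The level was 28.2-fold higher in clusters 1 and 4 (18.4 to 47.3 over libraries). The gene Hhat overlaps Kcnh1 on the opposite strand, and the sources used here do not state whether counting used the strand. At 5000 UMIs per nucleus, 18 of 127 nuclei of cluster 1 and 18 of 69 of cluster 4 had both a Kcnh8 and a Kcnh1 UMI.

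The other members of the EAG, ERG and ELK family were more evenly spread. Kcnh5, a second EAG-type gene, was at 234 ± 26.7 CPM in cluster 4, 209 ± 61.2 CPM in cluster 1 and 101 ± 19.4 CPM in cluster 0. Its log2 between the sets of clusters was 0.76 ± 0.34, and it was not called. Kcnh7, an ERG-type gene, was at 978 ± 53.0 CPM in cluster 0 and 753 ± 96.2 CPM in cluster 4, and the means of the other 3 clusters lay between 547 and 566 CPM. Kcnh2, the ERG gene best known from the heart, had cluster means from 19.7 to 31.2 CPM, with library values from 7.10 to 47.1 CPM.

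Kcns3 belongs to the electrically silent subunits, which form no channel alone and modify Kv2 channels. It was the member most limited to a single cluster: 108 of its 109 neuronal UMIs were in cluster 1, at 72.1, 62.5 and 49.8 CPM, and the remaining UMI was in cluster 0. At 5000 UMIs per nucleus, 25 of 127 nuclei of cluster 1 had a UMI (19.7%, exact 95% interval 13.2 to 27.7%). None of the nuclei of the other 4 clusters had one, and 0 of 69 in cluster 4 allows a share of up to 4.35% by the limit of 3 counts and of 5.21% by the exact 95% interval. Most nuclei of cluster 1 thus had no Kcns3 UMI, and 1 nucleus held 13.8% of all its UMIs. Of the 25 nuclei with a Kcns3 UMI, 19 also had one of Kcnh8.

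The other 2 silent subunits with enough UMIs were low in cluster 1. Kcnf1 was at 32.3, 14.4 and 21 CPM in cluster 3 and at 20.9, 17.5 and 10.7 CPM in cluster 2. It had 3 UMIs in cluster 1 and 0 in cluster 4, where 0 allows up to 16.5 CPM in the shallowest library. Kcns2 was highest in cluster 2, at 33.9 ± 4.54 CPM, 2.43-fold the mean of the other clusters (2.04 to 3.22). Kcnb2, a Kv2 delayed rectifier gene, was not called for either set and was highest in cluster 0, at 911 ± 67.1 CPM, and lowest in cluster 3, at 217 ± 25.6 CPM.

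**Figure D3:**
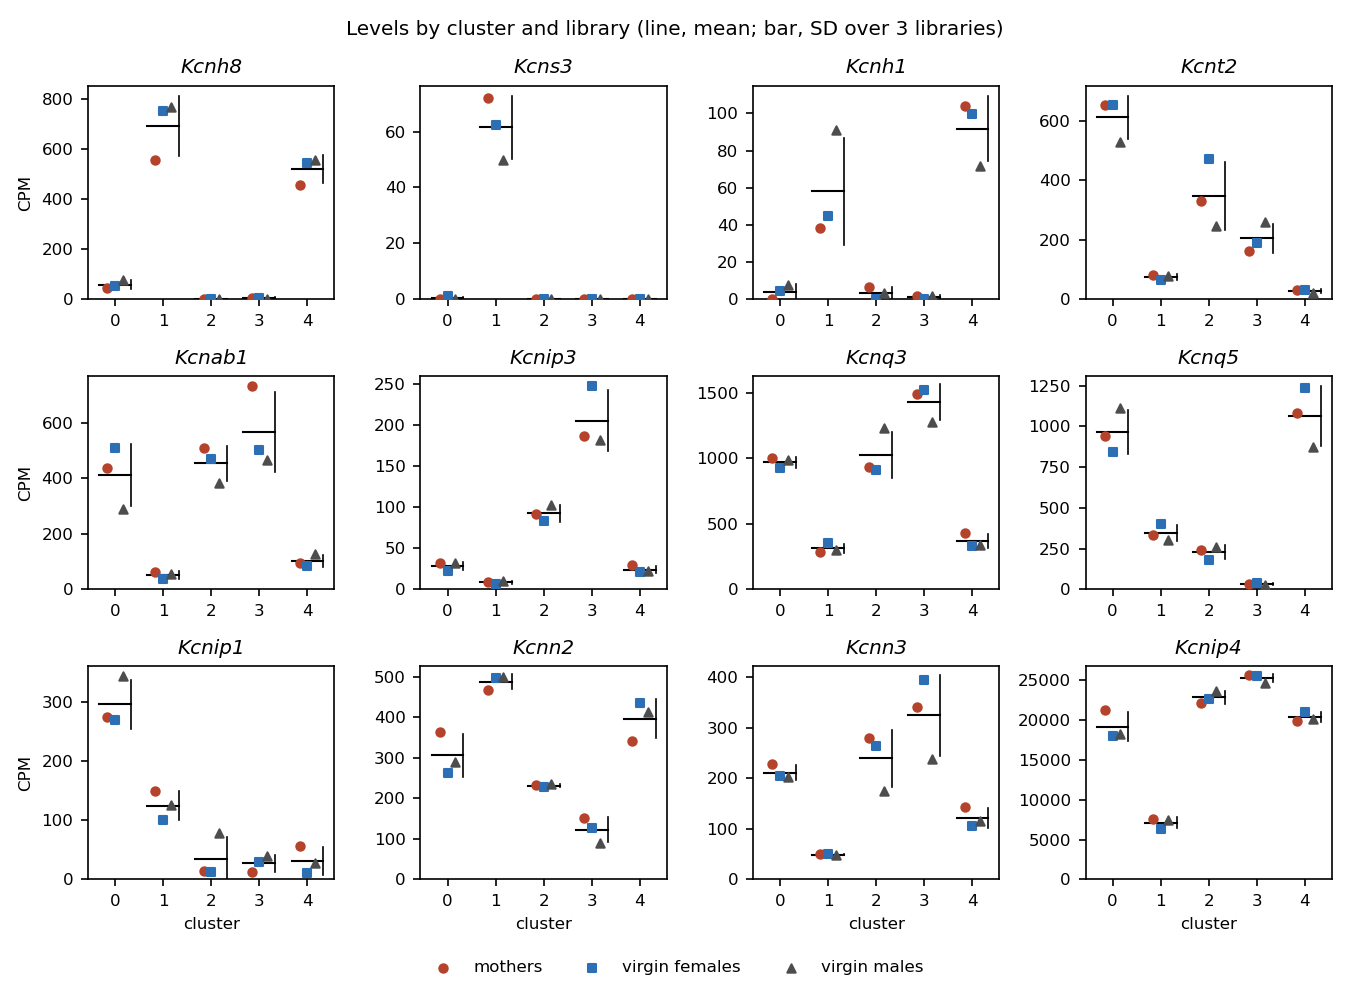
CPM of 12 potassium channel genes in clusters 0 to 4; points are the 3 libraries, horizontal lines their mean and vertical lines their SD (drawn down to 0 at most). Kcnh8 and Kcnh1 are high in clusters 1 and 4, Kcns3 in cluster 1 alone, Kcnq5 in clusters 0 and 4, and Kcnip4 is low in cluster 1 alone.

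Within the Kv1 family, whose channels sit in axons and delay or limit firing, neighbouring genes had opposite patterns. Kcna1 was at 124, 93.1 and 82.3 CPM in cluster 1, 4.31-fold the mean of the other clusters (3.60 to 6.13). Kcna6 lies next to it on chromosome 6 and was highest in cluster 2, at 94 ± 7.83 CPM, with 86.0 ± 8.02 CPM in cluster 3 and 33.4 ± 11.9 CPM in cluster 1. The UMI ratio of Kcna6 to Kcna1 was 0.347 ± 0.147 in cluster 1 and 6.43 ± 4.48 in cluster 2. Kcna4, an inactivating Kv1 subunit, was 3.53-fold higher in clusters 0, 2 and 3 (3.01 to 4.59), and its 9 values there, from 73.8 to 112 CPM, lay above all 6 of clusters 1 and 4. Kcna2 was highest in cluster 1, at 110, 146 and 119 CPM, and lowest in cluster 0, at 31.6, 51.5 and 27.1 CPM, and was not called for either set.

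Kcnab1, Kcnab2 and Kcnab3 encode the cytoplasmic beta subunits of Kv1 channels and split in the same way. Kcnab1 was at 435, 507 and 289 CPM in cluster 0, at 509, 469 and 384 CPM in cluster 2 and at 733, 501 and 467 CPM in cluster 3. Cluster 1 held 63.1, 36.5 and 56.3 CPM and cluster 4 held 94.1, 83.8 and 127 CPM. The level was 6.23-fold higher in clusters 0, 2 and 3 (4.15 to 8.18). Kcnab3 was found mostly in cluster 1, which held 45 of its 54 UMIs at 24.8, 22.4 and 32.5 CPM. Kcnab3os overlaps Kcnab3 on the opposite strand. Kcnab2 was at 55.7 ± 18.7 CPM in cluster 3 and 14.6 ± 13.7 CPM in cluster 4, with library values that overlapped between the sets of clusters.

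The Kv3 genes, whose fast channels let neurons fire at high rates, were divided as well. Kcnc2 was at 2059, 2161 and 2387 CPM in cluster 3 and 2244, 2019 and 2664 CPM in cluster 2. It was at 707, 612 and 711 CPM in cluster 1 and 478, 382 and 259 CPM in cluster 4, and was 3.63-fold higher in clusters 0, 2 and 3 (3.10 to 4.21). Kcnc4 was the opposite: with 106 UMIs, it was 5.06-fold higher in clusters 1 and 4 (4.31 to 5.65), at 33.2 ± 8.57 CPM in cluster 4 and 26.3 ± 3.91 CPM in cluster 1. Kcnc1 had a log2 of 0.01 ± 0.33 between the sets, with cluster 0 lowest at 72.8 ± 17.3 CPM and cluster 3 highest at 200 ± 16.1 CPM.

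The A-type current, a fast inactivating current below threshold, is carried by Kv4 channels with KChIP and DPP subunits. Kcnd2 was at 4068, 3787 and 3927 CPM in cluster 0 and 3639, 3812 and 3860 CPM in cluster 3. It was at 1246, 1032 and 1064 CPM in cluster 1 and 1812, 1655 and 1278 CPM in cluster 4, and was 2.74-fold higher in clusters 0, 2 and 3 (2.26 to 3.19). Kcnd3, the other tested Kv4 gene, had cluster means between 250 and 380 CPM and was not called. Kcnd3os, a noncoding transcript that overlaps Kcnd3 on the other strand, had 55 UMIs and was highest in cluster 3, at 19.8, 17.3 and 5.25 CPM.

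The 4 KChIP genes each had a pattern of their own. Kcnip4 was at 7611, 6331 and 7509 CPM in cluster 1, while the other 4 clusters ran from 18053 CPM (cluster 0, virgin females) to 25671 CPM (cluster 3, mothers). Kcnip1 was highest in cluster 0, at 274, 269 and 343 CPM, 5.52-fold the mean of the other clusters (4.71 to 7.05). Cluster 1 followed at 149, 100 and 126 CPM, and clusters 2, 3 and 4 averaged 27.2 to 35.2 CPM.

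Kcnip3, also known as calsenilin, was highest in cluster 3, at 187, 247 and 182 CPM, 5.29-fold the mean of the other clusters (4.34 to 7.39). Cluster 2 followed at 91.5, 82.9 and 103 CPM, and clusters 0, 1 and 4 had values of 7.07 to 31.9 CPM. Kcnip2 had only 61 UMIs and was highest in cluster 4, at 22.3, 31.4 and 38.6 CPM, against 2.72 ± 0.861 CPM in cluster 3. At 5000 UMIs per nucleus, a Kcnip1 UMI was found in 76.0% of nuclei of cluster 0 and 5.62% of cluster 3, and a Kcnip3 UMI in 13.6% and 57.3%.

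Kv7 channels carry the M-current, a slow current that acetylcholine shuts off. Kcnq3 and Kcnq5 had different orders over the clusters. Kcnq3 was at 1495, 1519 and 1275 CPM in cluster 3 and was lowest in cluster 1, at 286, 353 and 299 CPM, 3.37-fold higher in clusters 0, 2 and 3 (3.20 to 3.63). Kcnq5 was at 1084, 1236 and 870 CPM in cluster 4 and 940, 845 and 1109 CPM in cluster 0, and only 32.3, 40.3 and 28.0 CPM in cluster 3. The library values of clusters 4 and 0 overlapped, and those of cluster 3 lay far below the rest. The UMI ratio of Kcnq3 to Kcnq5 ran from 0.351 ± 0.0732 in cluster 4 to 43.2 ± 4.73 in cluster 3. At 5000 UMIs per nucleus, 137 of 154 nuclei of cluster 0 had both genes, while in cluster 3 12 of 89 nuclei had both and 76 had Kcnq3 alone.

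**Figure D4:**
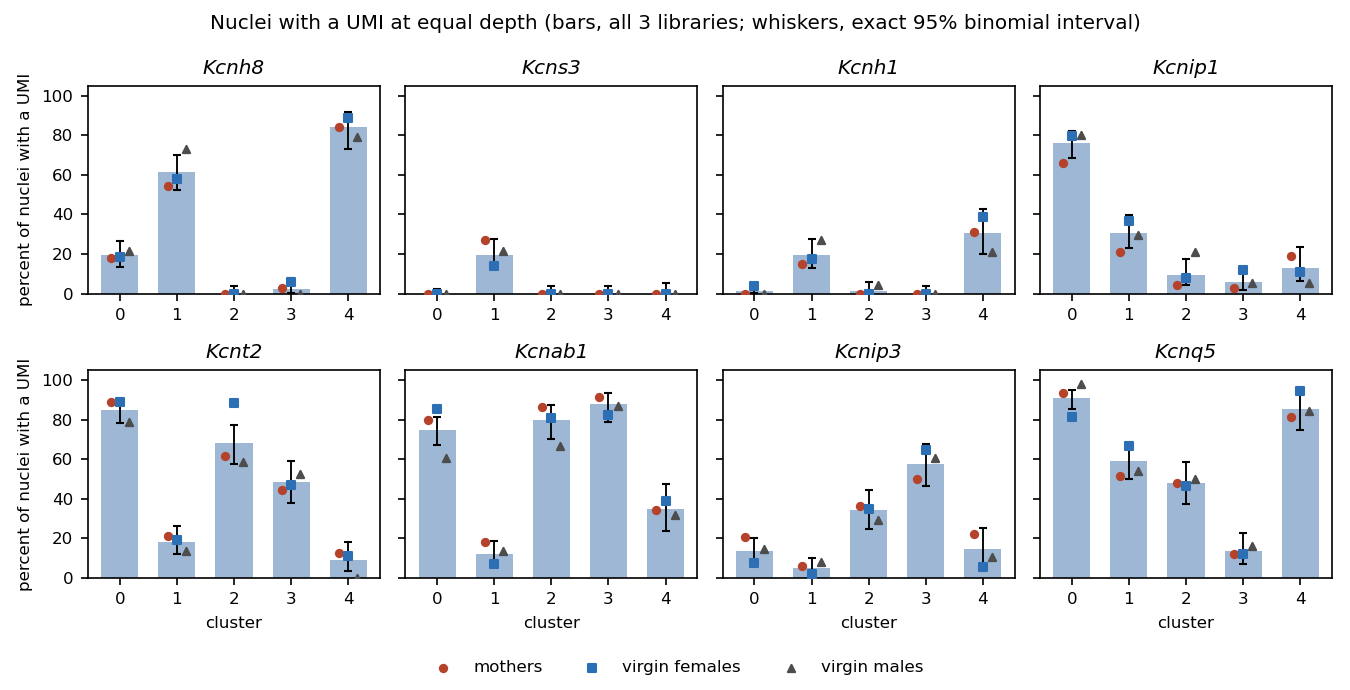
Percent of neuronal nuclei of at least 5000 UMIs, thinned to 5000 UMIs, that had a UMI of each of 8 genes, by cluster; bars pool the 3 libraries, whiskers are exact 95% binomial intervals (counting error only) and points are the libraries. Kcns3 is seen in 19.7% of nuclei of cluster 1 and in none of the other clusters, and Kcnq5 in 13.5% of nuclei of cluster 3 against 90.9% of cluster 0.

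SK channels are opened by calcium and produce the pause after a spike, and their 2 tested genes were opposed. Kcnn2 was at 466, 498 and 498 CPM in cluster 1 and 342, 435 and 413 CPM in cluster 4, and 151, 127 and 90.9 CPM in cluster 3. Kcnn3 was at 341, 394 and 238 CPM in cluster 3 and 49.6, 50.7 and 47.7 CPM in cluster 1. The UMI ratio of Kcnn3 to Kcnn2 was 0.101 ± 0.00534 in cluster 1 and 2.66 ± 0.428 in cluster 3, and the libraries' ratios did not overlap between the 2 clusters.

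The sodium-activated Slo2 channels showed a similar opposition. Kcnt2 (Slick) was at 652, 654 and 528 CPM in cluster 0, 329, 471 and 245 CPM in cluster 2 and 163, 190 and 261 CPM in cluster 3. Cluster 1 held 81.1, 64.8 and 80.2 CPM and cluster 4 held 32.2, 31.4 and 22 CPM. Kcnt2 was 7.45-fold higher in clusters 0, 2 and 3 (6.74 to 9.11), with no overlap. Kcnt1 (Slack) was 1.85-fold higher in clusters 1 and 4 (1.53 to 2.39), at 86.6 ± 10.7 CPM in cluster 1 and 35.2 ± 18.6 CPM in cluster 3. The call of Kcnt1 was lost with median-of-ratios size factors, which moved the median log2 over all genes by -0.13.

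The BK channel gene Kcnma1, whose channel opens with calcium and voltage together, was at 2545, 2060 and 1761 CPM in cluster 1 and lowest in cluster 4, at 933, 822 and 826 CPM. It was not called, since clusters 1 and 4 stood at opposite ends. Its neuronal beta subunit gene Kcnmb4 had 1 UMI in cluster 4 and was highest in cluster 2, at 57.8, 76.4 and 95.9 CPM. Kcnmb4os2, a noncoding transcript on the opposite strand that overlaps the start of Kcnmb4, had 74 UMIs, at 15.1 ± 7.73 CPM in cluster 2, 14.8 ± 2.49 CPM in cluster 3 and 2.66 ± 2.76 CPM in cluster 4. Kcnmb2, an inactivating beta subunit, was highest in cluster 1, at 288, 314 and 279 CPM, against 132 to 180 CPM as means elsewhere.

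G protein-gated inward rectifiers (GIRK) hyperpolarize neurons when GABA, serotonin or opioid receptors are active. Kcnj3 and Kcnj6, the usual neuronal pair, were called neither for a set of clusters nor for a single cluster. Their cluster means ran from 229 ± 32.5 CPM to 404 ± 11.4 CPM and from 171 ± 51.7 CPM to 287 ± 12.7 CPM. Kcnj9 was at 189, 207 and 138 CPM in cluster 3 and 186, 140 and 178 CPM in cluster 2, and 56.3, 35.4 and 41.2 CPM in cluster 1 and 42.1, 15.7 and 22 CPM in cluster 4. Its level was 4.50-fold higher in clusters 0, 2 and 3 (3.32 to 6.27). Kcnj5 had 57 UMIs, 40 of them in cluster 0 at 18.1, 9.16 and 31.9 CPM, and 0 in cluster 3. Kcnj12, a strong inward rectifier that holds the resting potential, was 2.39-fold higher in clusters 0, 2 and 3 (2.36 to 2.44). Kcnj11, the pore of ATP-sensitive channels, had 53 UMIs and was not called.

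K2P channels carry the resting leak current. Kcnk3 (TASK-1) was the called member, highest in cluster 3 at 50.3, 34.5 and 29.7 CPM and 3.39-fold higher in clusters 0, 2 and 3, with a wide range over libraries (1.96 to 6.6). Kcnk9 (TASK-3), its close relative, was instead highest in cluster 2, at 40.8 ± 4.6 CPM, followed by 36.4 ± 9.37 CPM in cluster 4. Kcnk1 was at 66.7 ± 10.1 CPM in cluster 3 and 31.0 ± 11.6 CPM in cluster 0. Kcnk2 (TREK-1) ran from 17.3 ± 2.65 CPM to 30.9 ± 12.6 CPM with overlapping libraries. Kcnq1ot1, the imprinted noncoding RNA inside Kcnq1, was the flattest of the abundant members, from 591 ± 35.5 CPM in cluster 2 to 678 ± 59.2 CPM in cluster 4.

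By the rule for single clusters, a level at least 2-fold the mean of the other 4 in each library, 18 members were called, against 8.57% of all genes. Cluster 0 was called for Kcnt2, Kcnj5 and Kcnip1 (1.86% of all genes), and cluster 1 for 5 members, among them Kcna1, Kcnab3, Kcns3 and Kcnh8 (2.86%). Cluster 2 was called for Kcnmb4 and Kcns2 (0.462%), and cluster 3 for Kcnip3, Kcnd3os, Kcnk3 and Kcnf1 (1.65%). Cluster 4 was called for Kcnq5, Kcnh1, Kcnc4, Kcnh8 and Kcnip2 (2.08%). Kcnh8 was called for both cluster 1 and cluster 4. With a minimum of 200 UMIs, 8 single-cluster members were left, so 10 of the 18 rest on fewer UMIs than that.

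Proteins outside the Kcn symbol that join these channels were read from a list of 11 genes, 7 of which had at least 50 UMIs. One was called: Lrrc55, a BK gamma subunit gene, was 4.48-fold higher in clusters 1 and 4 (2.73 to 7.36), at 33.8, 33.0 and 41.2 CPM in cluster 1. Dpp6 and Dpp10, the DPP partners of Kv4 channels, were not called, with log2 values of 0.08 ± 0.09 and -0.31 ± 0.26. Cntnap2, which clusters Kv1 channels along axons, had a log2 of 0.19 ± 0.11. Lgi1 and Amigo1, linked to Kv1 and Kv2 channels, and Abcc8, the sulfonylurea receptor of ATP-sensitive channels, were not called.

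Libraries were compared on all neuronal nuclei, and a member was called when its CPM ratio was at least 1.5-fold with an exact 95% counting interval that left out 1. Each ratio compares 2 libraries, not 2 conditions, and the 3 pairs share libraries. Between mothers and virgin females 2 of 49 tested members were higher in mothers, against 2.78% of all genes, and 3 were lower, against 2.87% (5.65% either way). Between virgin males and virgin females 1 of 47 was higher in males, against 2.23% of all genes, and 1 was lower, against 3.26% (5.50% either way). Between mothers and virgin males 2 of 48 were higher in mothers, against 2.92% of all genes, and 0 were lower, against 2.12% (5.05% either way). The other 44, 45 and 46 members were not called, and the median log2 over the members was 0.06, -0.07 and 0.06.

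Kcnh8 was the called member with most UMIs, at 172 CPM in mothers, while virgin females had 291 CPM and virgin males 238 CPM. The ratio of mothers to virgin females was 0.591 (0.526 to 0.664). Cluster 1, where Kcnh8 is high, held 39 nuclei of mothers, 65 of virgin females and 53 of virgin males. With every library given the same mix of clusters, the ratio was 0.781 and was no longer called, and mothers were lower in 4 of 5 clusters. Kcns3 was at 11.9 CPM for mothers and 10.8 CPM for virgin males, below the 19.9 CPM of virgin females, with ratios to virgin females of 0.598 (0.374 to 0.944) in mothers and 0.545 (0.319 to 0.904) in virgin males. At the same mix of clusters its ratio of mothers to virgin females turned to 1.13, and that of virgin males to virgin females was 0.783. Kcnc4 was at 10.4 CPM in mothers against 17.3 CPM in virgin females, a ratio of 0.602 (0.363 to 0.981), and 0.654 at the same mix, no longer called.

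Kcnf1 was higher in mothers, at 14.9 CPM from 40 UMIs, than in virgin females, at 8.09 CPM, and virgin males, at 8.01 CPM. The ratios were 1.84 (1.07 to 3.24) and 1.86 (1.03 to 3.49), and 1.60 and 1.94 at the same mix of clusters, where the call against virgin females was lost. Kcnk9 was at 27.1 CPM in mothers against 17.9 CPM in virgin males, a ratio of 1.52 (1.01 to 2.31), and 1.24 at the same mix, no longer called. These members had few UMIs, and at a minimum of 200 UMIs Kcnh8 was the only one left in any pair.

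**Figure D5:**
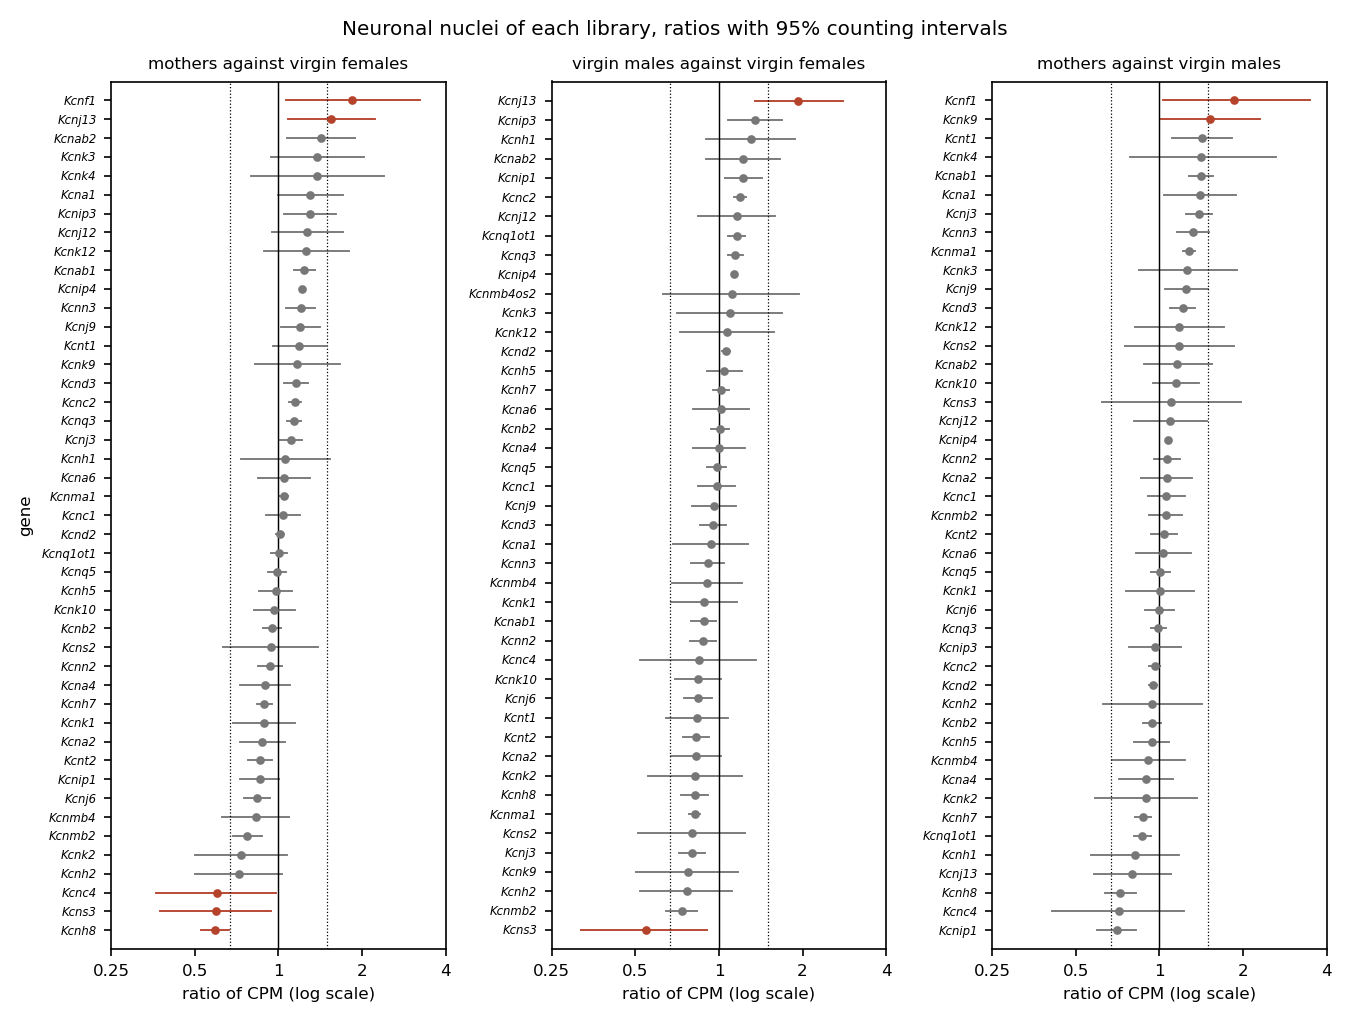
Ratios of CPM over all neuronal nuclei for tested potassium channel genes in the 3 pairs of libraries, on a log axis, with exact 95% counting intervals; red marks genes called at 1.5-fold (dotted lines). Most ratios lie within 1.5-fold of 1, from 0.545 for Kcns3 to 1.93 for Kcnj13 in virgin males against virgin females.

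Kcnj13, an inward rectifier gene known from the choroid plexus, was lowest in virgin females, at 19.5 CPM, against 30.1 CPM for mothers and 37.7 CPM for virgin males. The ratio was 1.93 (1.35 to 2.79) for virgin males and 1.54 (1.08 to 2.23) for mothers, both against virgin females. At the same mix of clusters the ratios were 1.77 for virgin males and 1.42 for mothers, the latter no longer called. In cluster 1 it was at 31.5, 17.7 and 67.2 CPM. Choroid plexus markers summed to 363 CPM in virgin males, against 1.86 CPM for mothers and 0.368 CPM for virgin females, and the 5 neuronal nuclei with at least 20 UMIs of Ttr, a choroid plexus transcript, were all virgin male nuclei of cluster 1. Those 5 nuclei held 19 Kcnj13 UMIs and 6 of the 8 UMIs of Kcne2, another choroid plexus gene. Without them Kcnj13 in cluster 1 of virgin males was at 27.1 CPM, and its log2 of virgin males over virgin females went from 0.95 to 0.57 and was no longer called. Kcnj13 lies inside Gigyf2 on the opposite strand, and the part of Gigyf2 in its UMIs was not tested.

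The other genes known from glia or vessels were close to absent from neuronal nuclei. Kcnj10, the main inward rectifier of astrocytes, had 5 neuronal UMIs in all, Kcnj16 had 3, Kcnj8 had 0 and Kcnk13 had 25. Astrocyte markers summed to 4.41 to 8.01 CPM and oligodendrocyte markers to 4.46 to 9.93 CPM over the libraries. Microglial markers were higher, at 102 to 136 CPM, but most of this was P2ry12, with cluster means of 67.8 to 114 CPM. Cx3cr1 had cluster means of 15.0 to 27.0 CPM, Csf1r of at most 0.825 CPM and C1qa of at most 2.37 CPM. Intervals and limits in the text cover counting error only.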

How the data were processed

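Nuclei were captured with a 10x Chromium 3′ assay, and reads were processed with Cell Ranger 5.0.1 on GRCm38 (mm10), per the submitters' processing notes. The authors deposited raw UMI counts per gene and nucleus, and per nucleus a total count, the percent of mitochondrial UMIs, a cell class and a cluster. The sources used here do not state the filters, how doublets were treated, or the intron and strand settings. Tables were joined by each nucleus's total UMIs and genes with a UMI, a pair unique to every nucleus; mitochondrial percents recomputed from the counts differed from the deposited percents by at most 5e-15.

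Neuronal UMIs were summed per library and cluster and scaled to CPM with Python 3.11.15, pandas 2.3.3 and scipy 1.17.1. Members needed 50 UMIs over the nuclei compared. A fold is the geometric mean of the 3 libraries' folds. The calling code was tested on simulated data. Text names the 10 largest folds in each direction between the sets of clusters, up to 4 members per single cluster, up to 6 per library pair, a fixed list of main neuronal subunits and a glial list; other members complete their families. Some members are counted but not reported here by name or value. Members and lists were chosen with earlier results of these data known. Gene positions are from GENCODE mouse release 21, promoters from RefSeq. Alternatives were thinning to 5000 UMIs, other minimums, median-of-ratios factors, an equal mix of clusters and leaving out libraries or rich nuclei.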

Additional observations from a re-analysis of the deposited data

Results flagged for a closer look

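Of the potassium channel genes with more than 3 UMIs in the non-neuronal nuclei, 5 had a higher CPM in the 11 non-neuronal nuclei, which no comparison used, than in neuronal nuclei, with counting intervals above 1. Kcnj10 had 14 UMIs there, in 4 nuclei, at 181 CPM against 0.664 CPM in neurons. Kcnj16, which pairs with Kcnj10 in glia, had 6 UMIs in 3 nuclei, at 77.7 CPM against 0.398 CPM. Kcnh1 had 23 UMIs, all in the 5 nuclei the authors called ependymal cells, at 298 CPM against 24.8 CPM over all neurons. Kcnip3 had 11 UMIs, 8 of them in the single polydendrocyte nucleus, a ratio of 2.09 (1.04 to 3.77). Kcnq1ot1 had 82 UMIs, 70 of them in the ependymal nuclei, a ratio of 1.70 (1.35 to 2.11). Kcnmb1, with 3 UMIs there and 0 in neurons, was at that limit and is left out. All values come from few nuclei, and these differences were not tested over samples. The share of all genes that would pass the same rule was not computed. The minimum was set on UMIs of the non-neuronal nuclei themselves, so the count of 5 is not read as a trait of the members. The intervals treat UMIs as independent, also where most came from a single nucleus.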

How the results depend on the processing

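Gene values are those of the members chosen for naming, without those that fell under an alternative's minimum. Of 452 values between clusters 439 kept direction and call, 9 lost the call, 4 gained it and 0 reversed. The other minimums reused the main values, here and between libraries, and leaving out a library could only keep or add calls. Those settings could therefore lose no call among the values kept, and their part of these tallies does not measure robustness. The minimum of 200 UMIs and thinning each lost 11 of the 30 calls between the sets. Of 67 values between libraries 53 kept both, 13 lost the call and 1 reversed: Kcns3 in mothers over virgin females had a log2 of 0.18 at an equal mix of clusters. A minimum of 200 UMIs left 5 members high in clusters 1 and 4, 8 high in a single cluster, and 1, 0 and 0 called between mothers and virgin females, virgin males and virgin females, and mothers and virgin males. A minimum of 1 UMI gave 16 high in clusters 1 and 4, and 9, 7 and 4 in these pairs. Thinning to 5000 UMIs, with the minimum of 50 applied to thinned counts, left 5 high in clusters 1 and 4 (4 of them among the 10), with 1 and 4 called in the pairs with virgin males. Without the 5% of nuclei with most UMIs these pairs had 1 and 4. Without each gene's richest nucleus, or without the 5 Ttr-rich nuclei (chosen after seeing the data), virgin males against virgin females had 1. An equal mix of clusters gave 3 for mothers against virgin females, none of them among the 5, and 1 for mothers against virgin males. Without each library in turn the counts were 10 to 12 for clusters 1 and 4, 20 to 22 for clusters 0, 2 and 3, and 20 to 22 for single clusters. A call needs the fold in every library used, so these counts could not fall. Median-of-ratios factors left 8 high in clusters 1 and 4. Keeping only nuclei with the LHb label changed no count, but left out almost no nuclei. The label was on 199 of 201 neuronal nuclei of mothers, 186 of 187 of virgin females and 203 of 204 of virgin males. Beyond the change in counts tested, the cause was not tested. No paired analysis was possible because each group had 1 library. In cluster 4, the shallowest, 0 UMIs allow up to 16.5 CPM in a library.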
